A study of Mus musculus with 28 samples.

Results

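Proteasome subunit genes were taken as the genes whose name in the array annotation begins with Psma, Psmb, Psmc, Psmd, Psme, Psmf or Psmg and a number. The rule found 44 genes with 67 probes, among 27670 genes and 41174 probes on the array. All 44 were well above background on at least 3 of the 28 arrays, as were 19397 genes in all, and each is represented by its brightest probe. The members are 31 constitutive subunits, 5 interferon-induced genes (Psmb8, Psmb9, Psmb10, Psme1 and the gene measured by the Psme2b-ps probe), 3 other regulators, 3 assembly chaperones, the testis-restricted subunit Psma8 and Psmc3ip. Psmc3ip shares the name but is no proteasome subunit. No gene named Psmg was among the members. In 30 of the 44 genes every array gave a value, and in 14 a spot was lost on at least 1 array.

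The arrays measured RNA of BALB/c mouse T cells, sorted as CD8 or CD4 cells from old animals (20 months) and young animals (4 months). Cells had been activated on plates coated with anti-CD3 and anti-CD28 and collected after 4, 12, 24 or 72 h, with 1 array per age, cell type and time (16 groups), or had been left unstimulated (0 h), with 3 arrays per age and cell type (4 groups). Each array's RNA came from a pool of 4 separate sorts, per the labels, so the p-values below measure the spread between these pooled samples, which may be technical. The labels conflict on the gate, since titles and the growth protocol give CD62Llo/CD44hi whereas the sample descriptions and the design text give naive CD62Lhi/CD44lo.

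The proteasome is the main protease of the cytosol and nucleus and degrades proteins marked with ubiquitin. Its 20S core is a stack of rings of alpha and beta subunits, in which Psmb5, Psmb6 and Psmb7 carry the active sites, and its 19S cap of ATPases (Psmc) and non-ATPase subunits (Psmd) binds, unfolds and feeds in substrates. In lymphocytes, and elsewhere after interferon, Psmb8, Psmb9 and Psmb10 can take the place of the 3 catalytic subunits to form the immunoproteasome. Psme1 and Psme2 form an alternative cap, and both are known for their part in making peptides for major histocompatibility complex class I molecules.

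The start regions of the genes set against each other below are shown first, because the constitutive and the interferon-induced genes differ in how stimulation moved them. Each window is 300 bases of RefSeq sequence on GRCm38.p6, 250 before to 50 after the annotated start, 5′ to 3′ on the gene's own strand, and capitals mark matches to any of the 5 motifs searched. Psmb10 lies at chr8:105938343-105938642 (minus strand), Psmb8 at chr17:34197945-34198244 (plus strand), Psmb9 at chr17:34187281-34187580 (minus strand) and Psme1 at chr14:55578244-55578543 (plus strand). The catalytic subunit genes Psmb5 and Psmb6 lie at chr14:54617946-54618245 (minus strand) and chr11:70525107-70525406 (plus strand).
Psmb10: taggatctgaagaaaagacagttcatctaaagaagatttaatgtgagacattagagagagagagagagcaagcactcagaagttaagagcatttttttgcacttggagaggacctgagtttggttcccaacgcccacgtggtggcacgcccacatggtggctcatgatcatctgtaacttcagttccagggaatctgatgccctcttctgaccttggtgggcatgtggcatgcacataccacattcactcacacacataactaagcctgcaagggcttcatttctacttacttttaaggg
Psmb8: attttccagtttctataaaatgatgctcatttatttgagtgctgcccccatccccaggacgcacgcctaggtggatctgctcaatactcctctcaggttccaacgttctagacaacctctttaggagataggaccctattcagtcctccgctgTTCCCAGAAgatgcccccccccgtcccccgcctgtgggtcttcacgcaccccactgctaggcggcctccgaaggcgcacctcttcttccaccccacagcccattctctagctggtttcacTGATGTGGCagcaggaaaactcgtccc
Psmb9: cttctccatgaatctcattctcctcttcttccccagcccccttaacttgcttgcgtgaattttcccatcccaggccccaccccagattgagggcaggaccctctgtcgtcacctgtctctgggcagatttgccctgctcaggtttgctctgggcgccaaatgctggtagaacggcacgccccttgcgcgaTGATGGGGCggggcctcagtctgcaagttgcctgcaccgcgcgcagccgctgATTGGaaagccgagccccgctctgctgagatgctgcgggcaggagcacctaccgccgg
Psme1: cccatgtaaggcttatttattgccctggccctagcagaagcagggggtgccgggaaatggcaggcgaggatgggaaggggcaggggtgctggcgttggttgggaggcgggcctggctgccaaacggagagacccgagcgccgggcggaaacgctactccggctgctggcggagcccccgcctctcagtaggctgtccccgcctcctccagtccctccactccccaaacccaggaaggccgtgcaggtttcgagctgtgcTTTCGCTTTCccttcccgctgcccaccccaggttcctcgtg
Psmb5: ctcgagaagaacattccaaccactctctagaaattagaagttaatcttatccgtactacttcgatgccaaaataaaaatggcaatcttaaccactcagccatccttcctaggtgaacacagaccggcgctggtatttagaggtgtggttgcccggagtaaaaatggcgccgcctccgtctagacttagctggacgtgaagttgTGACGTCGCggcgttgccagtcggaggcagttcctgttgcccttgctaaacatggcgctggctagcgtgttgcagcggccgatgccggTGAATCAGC
Psmb6: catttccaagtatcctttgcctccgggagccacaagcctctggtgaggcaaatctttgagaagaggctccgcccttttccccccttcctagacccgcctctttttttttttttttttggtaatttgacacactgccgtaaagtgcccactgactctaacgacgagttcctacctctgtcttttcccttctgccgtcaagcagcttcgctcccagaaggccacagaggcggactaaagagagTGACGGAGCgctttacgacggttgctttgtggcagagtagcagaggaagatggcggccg

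The motifs were searched on both strands, and a match is a description of the letters only. No overlap between matches occurred in these windows. The antioxidant response core TGANNNNGC was found in 13 of 25 constitutive subunit genes with a sequence, in 3 of 5 interferon-induced genes (Psmb8, Psmb9 and Psme2) and in 41.4% of 27025 mouse promoter windows. The interferon-stimulated response letters, GAAA, any 2 bases and GAAA again, were in 2 of 25 constitutive genes, in Psme1 alone of the 5, and in 3.5% of all windows. The gamma-activated site TTCNNNGAA was in 1 of 25 constitutive genes, in Psmb8 of the 5, and in 8.5% of all windows. The ETS core CCGGAAG was in 9 of 25 constitutive genes, in 0 of 5 interferon-induced genes and in 9.1% of all windows, and CCAAT was in 10 of 25, in Psmb9 of the 5 and in 37.9%. The Psmb10 window held none of the 5 motifs, and Psmb5 held the antioxidant response core at 47 bases before and 42 bases after the start. Psmb8 and Psmb9 are neighbours in the class II region of chromosome 17, with the peptide transporter gene Tap1 between them, and Psme1 and Psme2 lie either side of Emc9 on chromosome 14. A RefSeq promoter was matched for 37 of the 44 members.

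Values are log2 levels, meaning log2 of an array's background-corrected signal over its 75th percentile, so that each probe can be followed between arrays but not set against another probe. The 28 arrays had 16972 to 28803 probes above background. The CD4 arrays at 12, 24 and 72 h had a coefficient of variation between repeat spots of 18.0 to 23.7%, against 6.2 to 12.2% on the others. The CD8 lineage markers were higher in CD8 than in CD4 cells at 0 h in 5 of 5 genes (median log2 difference 5.51), and the CD4 lineage markers lower in 4 of 4 (median -3.72). Other cells left a trace at 0 h: the summed level of 8 B cell markers, relative to the 75th percentile, was 10.3 to 10.6 on the old CD4 arrays and 1.79 to 5.12 on the young CD4 arrays, and 14.01 to 31.6 on the old CD8 arrays and 9.56 to 12.3 on the young CD8 arrays. The third old and the third young CD4 array at 0 h were on a slide of their own and had a summed level of 8 myeloid markers of 227.8 and 231.8, against 2.62 to 12.6 on the other 4. Stimulated arrays were scanned in other sessions than 8 of the 12 arrays at 0 h, and each slide holds 1 cell type and, once stimulated, 1 time. Time and slide cannot be told apart. In CD4 cells every stimulated array also differed in scanner and software version from the 4 arrays at 0 h with the lower myeloid sums. It shared both with the CD4 arrays at 0 h that had the high myeloid sums. All CD8 arrays had the same scanner and version.

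**Figure D1:**
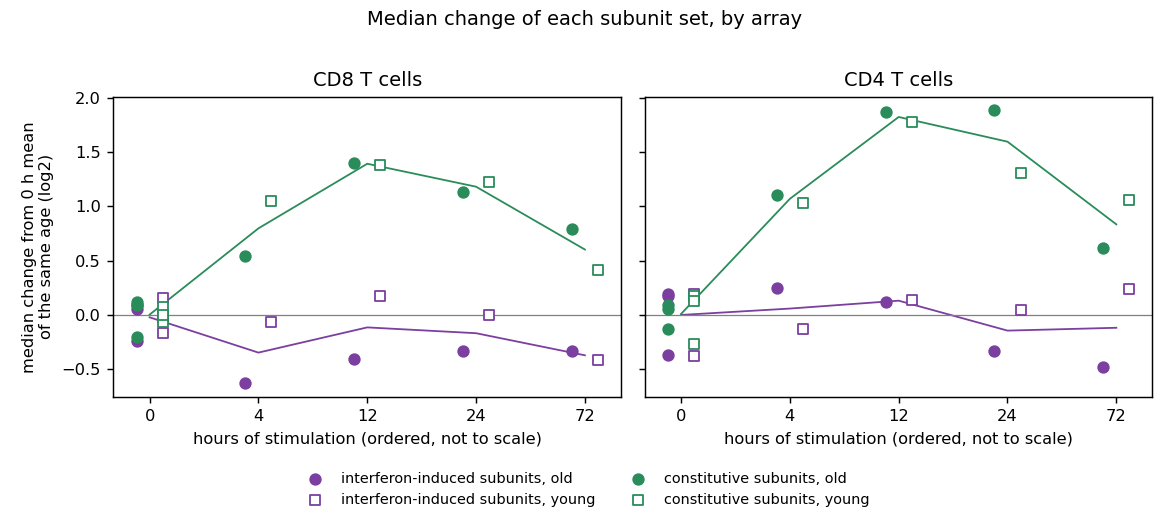
Median change over the 31 constitutive subunits and the 5 interferon-induced genes on each array, as log2 against the mean of 0 h of the same cell type and age, for CD8 and CD4 cells with old and young arrays marked and lines through the means of both. On all 16 stimulated arrays the constitutive median lay between 0.41 and 1.88 and above the interferon-induced median, which lay between -0.63 and 0.25.

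Stimulation raised most constitutive proteasome subunits in both cell types. In CD8 cells the constitutive subunits called higher than at 0 h numbered 18 of 31 at 4 h, 29 of 31 at 12 h, 29 of 31 at 24 h and 11 of 31 at 72 h, with median log2 changes of 0.79, 1.33, 1.204 and 0.66. In CD4 cells they numbered 23 of 31 at 4 h, 28 of 29 at 12 h, 28 of 31 at 24 h and 18 of 31 at 72 h, with medians of 0.93, 1.77, 1.43 and 0.79. No constitutive subunit was called lower at any of the 4 times in either cell type. A call here is a Benjamini-Hochberg adjusted p under 0.05 over all genes from limma. It sets the 2 stimulated arrays (1 old, 1 young) of a time against 6 arrays at 0 h, less any lost spot. In CD4 cells the 2 differ from most of the 6 in scanner and software version, and a call takes no account of this. Psmc5 and Psmc6 had no usable spot in CD4 cells at 12 h. Only 1 stimulated array was left for Psmd3 in CD8 cells at 12 h. In CD4 cells the same held for Psma7 and Psmd3 at 12 h and for Psma5, Psmc5 and Psmc6 at 24 h. At 72 h it held for Psma3, Psma7, Psmc6 and Psmd11 in CD4 cells. Because the RNA is from a bulk of cells, fewer cells of a type and less RNA per cell cannot be told apart.

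Over all 44 members, CD8 cells at 4 h had 18 called higher and 2 called lower, where 14.3% of all genes tested were called higher and 13.1% lower. At 12 h the counts in CD8 cells were 34 higher and 1 lower (16% and 14.3% of all genes), at 24 h 34 and 1 (16.1% and 17.1%) and at 72 h 14 and 2 (13.7% and 14.4%). In CD4 cells 24 members were higher and 1 lower at 4 h (15.7% and 16.4% of all genes). At 12 h it was 35 and 1 of 42 (24.2% and 16.5%), at 24 h 34 and 1 of 44 (25.2% and 19.7%) and at 72 h 25 and 1 (22.3% and 17%). Over all genes the median log2 change stayed between -0.10 and 0.08 in CD8 cells and between -0.07 and 0.26 in CD4 cells. Among genes at least as bright as the dimmest constitutive subunit (6470 where all were measured), 28.8% were called higher in CD8 cells and 41% in CD4 cells at 12 h.

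The counts at 4 and 72 h rest on few arrays. Without the young CD8 array at 4 h, 2 members were called in place of 20, without the old CD8 array at 72 h 4 in place of 16 and without the young one 9. In CD8 cells at 24 h, 23 were called without the old array and 18 without the young one, in place of 35. In CD4 cells 13 were called without the old array at 4 h and 15 without the young one, in place of 25, and 13 without the young array at 72 h in place of 26. Of the calls at 12 h, 17 of 35 in CD8 cells and 24 of 36 in CD4 cells were kept under every alternative processing run, and at 24 h 14 of 35 and 23 of 35. At 4 h 1 of 20 and 7 of 25 were kept, and at 72 h 0 of 16 and 6 of 26. The resting arrays scanned in the same session as stimulated ones lay lower than the other resting arrays by a median of 0.25 (CD8) and 0.26 (CD4) over the constitutive subunits and of 0.31 (CD8) and 0.54 (CD4) over the interferon-induced genes, on the log2 scale. With only those resting arrays as the baseline, 6 members were called in CD8 cells at 4 h in place of 20, and 16 in CD4 cells in place of 25. The CD4 arrays at 4 h and the old CD8 array at 12 h were themselves scanned on other days than these resting arrays. In CD4 cells these resting arrays are the third old and the third young one, with the high myeloid sums given above.

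**Figure D2:**
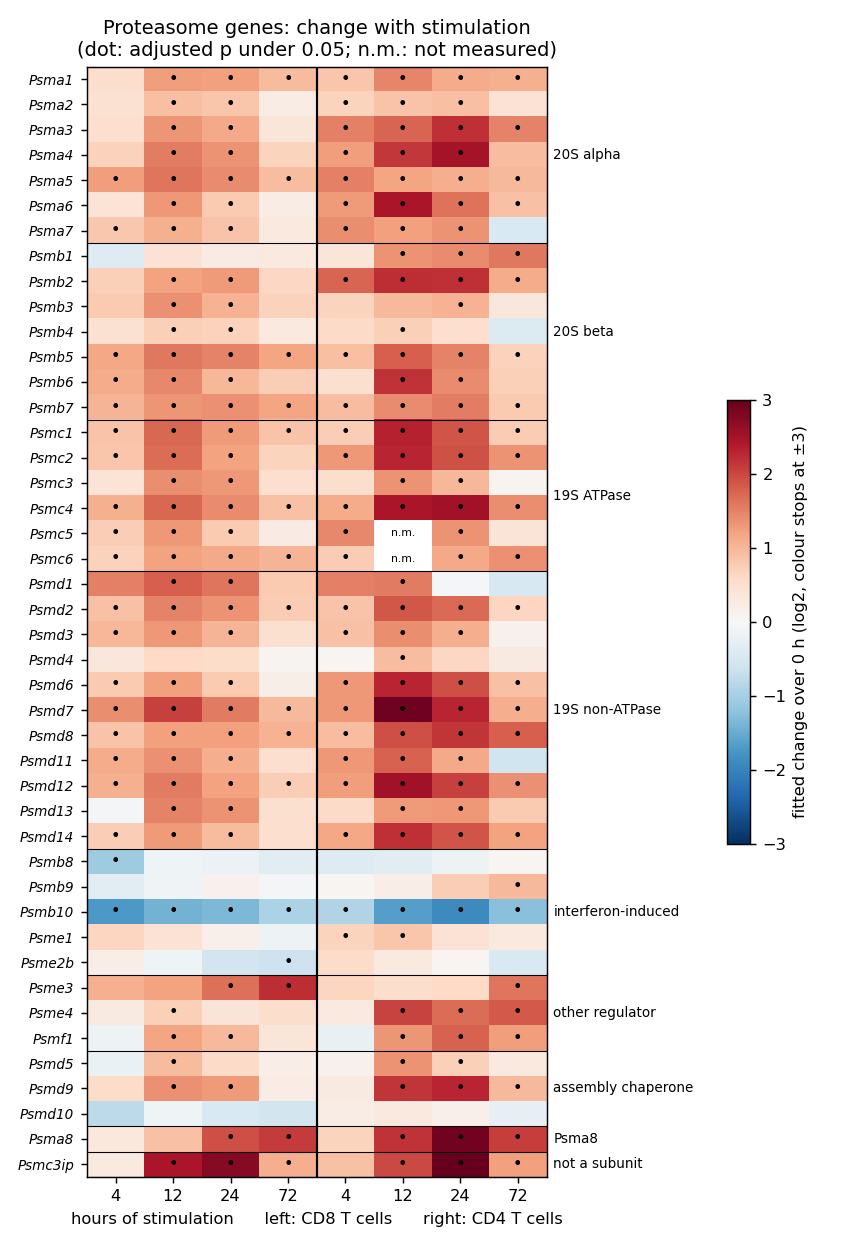
Log2 change of each member at 4, 12, 24 and 72 h over 0 h in CD8 and CD4 cells from limma, with members grouped by role and colour running from blue (lower) to red (higher), dots for an adjusted p under 0.05 and n.m. for not measured. At 12 and 24 h 29 of 31 constitutive subunits have a dot in CD8 cells, whereas Psmb10 is blue at all 4 times.

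The catalytic subunits of the constitutive core rose. Psmb5, the chymotrypsin-like subunit, had log2 levels of 3.45, 3.71 and 3.88 (lowest, median and highest of 6 arrays) at 0 h in CD8 cells, and 4.56, 5.16, 5.26 and 5.07 in old and 5.10, 5.35, 5.07 and 4.63 in young CD8 cells at 4, 12, 24 and 72 h. In CD4 cells it had 2.96, 3.35 and 3.46 at 0 h, and 4.14, 5.40, 5.21 and 3.79 in old and 4.23, 4.74, 4.36 and 4.17 in young cells at the 4 times. Every stimulated array was above every array at 0 h of its cell type. The log2 change of Psmb5 peaked at 12 h, at 1.58 ± 0.24 (SE, limma adjusted p = 6.03e-05, 2.99-fold) in CD8 cells and 1.78 ± 0.24 (adjusted p = 9e-06, 3.44-fold) in CD4 cells. Its calls at 12 and 24 h held under every alternative.

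Psmb7, the trypsin-like subunit, was likewise called higher at all 4 times in both cell types, with log2 changes of 1.02, 1.33, 1.36 and 1.18 in CD8 cells and 0.92, 1.42, 1.52 and 0.79 in CD4 cells. Its levels did not overlap: stimulated CD8 arrays lay at 2.98 to 3.75 against 1.87 to 2.29 at 0 h, and stimulated CD4 arrays at 2.36 to 3.79 against 0.85 to 2.28. Psmb6, the caspase-like subunit, changed by 1.102, 1.45, 0.99 and 0.75 in CD8 cells, called at 4, 12 and 24 h, and by 0.48, 2.18, 1.42 and 0.71 in CD4 cells, called at 12 and 24 h (limma). Its old CD4 arrays stood at 4.48 at 4 h and 4.89 at 72 h, inside the range of 3.89 to 5.05 at 0 h, whereas the old array at 12 h stood at 7.33. The CD8 call of Psmb6 at 24 h (limma adjusted p = 0.0475) held in 5 of 19 alternatives. It was lost when any 1 of the 8 arrays was left out. The CD8 call of Psmb6 at 4 h held in 11 of 19. For Psmb7 the calls at 12 and 24 h held under every alternative. At 4 and 72 h they held in 15 of 19 and 18 of 20 in CD8 cells, and in 16 of 19 and 14 of 19 in CD4 cells.

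**Figure D3:**
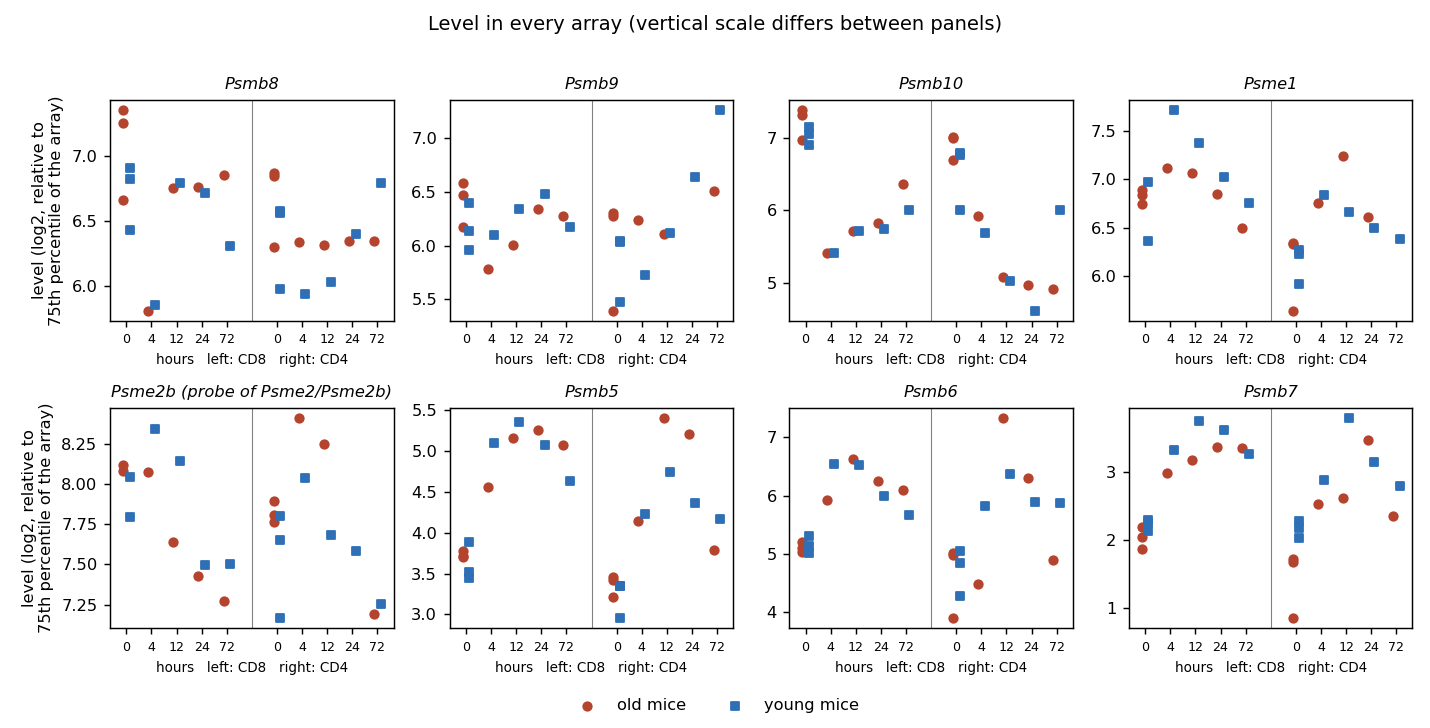
Log2 level on each array of the 3 catalytic constitutive subunits Psmb5, Psmb6 and Psmb7 and of the 5 interferon-induced genes, by time (0, 4, 12, 24 and 72 h), with cell type and age marked. Psmb10 lies at 6.01 to 7.38 at 0 h and at 4.62 to 6.37 after stimulation.

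The interferon-induced subunits did not follow. In CD8 cells none of the 5 was called higher at any time, and 2, 1, 1 and 2 were called lower at 4, 12, 24 and 72 h, with median log2 changes of -0.35, -0.12, -0.17 and -0.32. In CD4 cells 1, 1, 0 and 1 were called higher and 1 lower at each time, with medians of 0.06, 0.19, 0.05 and 0.05. With 5 genes these counts describe the named genes and nothing beyond them.

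Psmb10, which takes the place of Psmb7, fell at every time in both cell types. In old CD8 cells its log2 levels were 7.32, 7.38 and 6.97 at 0 h and 5.41, 5.72, 5.83 and 6.37 at 4, 12, 24 and 72 h, and in young CD8 cells 6.91, 7.15 and 7.06 at 0 h and 5.42, 5.72, 5.75 and 6.002. In old CD4 cells they were 7.0004, 7.02 and 6.70 at 0 h and 5.92, 5.08, 4.97 and 4.92 later, and in young CD4 cells 6.77, 6.79 and 6.01 at 0 h and 5.68, 5.02, 4.62 and 6.004. All 8 stimulated CD8 arrays lay below all 6 CD8 arrays at 0 h, and all 8 stimulated CD4 arrays lay below all 6 CD4 arrays at 0 h, the nearest being the young arrays at 72 h (6.004) and at 0 h (6.009). The log2 change in CD8 cells was -1.72 ± 0.27 at 4 h (SE, limma adjusted p = 8.18e-05, 3.29-fold lower), then -1.41, -1.34 and -0.95 (adjusted p = 0.000541, 0.000678 and 0.0118). In CD4 cells it was -0.91 at 4 h (adjusted p = 0.0126), -1.66, then -1.92 ± 0.27 at 24 h (adjusted p = 1.17e-05, 3.78-fold lower) and -1.25 at 72 h (adjusted p = 0.00107).

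The calls of Psmb10 at 4 h in CD8 cells and at 12 and 24 h in CD4 cells held under every alternative. Those at 12 and 24 h in CD8 cells held in 18 of 19 each. In CD4 cells the call held in 12 of 19 at 4 h and in 16 of 19 at 72 h. Losses at 4 h included those without the old array (-0.99) or the young one (-0.83) of that time. It was also lost there with resting arrays of the same session only (-0.55), and at 72 h without the old array (-0.56). At 72 h in CD8 cells the call of Psmb10 held in 15 of 20. Losses there included those without the old array (-1.08) or the young one (-0.81). Summed B cell markers were also lower on the stimulated CD8 arrays, at 1.59 to 5.01 against 9.56 to 31.6 at 0 h. Of the 8, 3, 5, 6 and 6 were called lower at 4, 12, 24 and 72 h, and Pax5 was above background on no stimulated array. At these times the sum was 5.01, 2.82, 2.04 and 1.60 on old and 3.55, 2.46, 1.59 and 1.85 on young arrays. Psmb10 was lowest at 4 h and then rose in both. Summed myeloid markers in CD8 cells lay at 0.296 to 71.3 against 7.22 to 185.2, the highest stimulated value on the old array at 4 h. In CD4 cells the sums were 1.67 to 5.19 against 1.79 to 10.6 for B cell and 0.868 to 140.5 against 2.62 to 231.8 for myeloid markers, with Cd22 above background on no stimulated array. Their part in the result was not tested.

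Psmb8, the counterpart of Psmb5, was called lower only in CD8 cells at 4 h among the 8 comparisons, at 5.81 in old and 5.85 in young cells against 6.43, 6.86 and 7.35 (lowest, median and highest) at 0 h, a log2 change of -1.07 ± 0.25 (SE, limma adjusted p = 0.00342). Its levels at 12, 24 and 72 h in CD8 cells (6.31 to 6.85) overlapped those at 0 h. The call held in 16 of 19 alternatives and was lost, among others, without the old array of 4 h (-0.91). A second Psmb8 probe differed in sign, with mean changes over the 4 times of 0.02 in CD8 and 0.31 in CD4 cells, against -0.42 and -0.21 for the probe used. Psmb9, the counterpart of Psmb6, was called higher in CD4 cells at 72 h (log2 change 0.96 ± 0.28, limma adjusted p = 0.0116). It stood at 6.51 in old and 7.26 in young cells against 5.39, 6.04 and 6.30 at 0 h. Psmb9 kept that call in 15 of 19 alternatives and lost it, among others, without the young array (0.50). Its other log2 changes lay between -0.35 and 0.74.

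Psme1 was called higher in CD4 cells at 4 h (6.76 in old and 6.84 in young cells against 5.65 to 6.34 at 0 h, log2 change 0.68, limma adjusted p = 0.0446) and at 12 h (7.24 and 6.66, log2 change 0.83, adjusted p = 0.0125). The call at 4 h was lost without the old array of that time (0.78), the young one (0.58), the third old (0.56), the second young (0.71) or the third young array (0.64) at 0 h, and that at 12 h without the old array (0.53). The fifth gene is uncertain. Its 2 probes carry the name Psme2b-ps with an accession that the RefSeq table gives to Psme2b on chromosome 11, whereas the file places them at chr14:50454846-50454905 (mm7), beside the Psme1 probe at chr14:50448660-50448719, where Psme2 lies. Signal from the near-identical copies cannot be told apart. The brighter probe fell to 7.27 in old and 7.502 in young CD8 cells at 72 h, against 7.79 to 8.12 on 4 arrays at 0 h (log2 change -0.62, limma adjusted p = 0.0477). That call held in 8 of 19 alternatives. Losses included those without the old (-0.55) or the young (-0.69) array of 72 h and without 4 of the arrays at 0 h. Over the 4 times the other probe changed by 0.16 in CD8 cells, against -0.27, and by 0.80 in CD4 cells, against 0.09.

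With each array set against the mean of 0 h of its own age and cell type, the difference between the median change of the interferon-induced genes and that of the constitutive subunits was negative on all 16 stimulated arrays. In CD8 cells it was -1.17, -1.80, -1.46 and -1.12 on old and -1.11, -1.21, -1.23 and -0.82 on young arrays at 4, 12, 24 and 72 h, on the log2 scale. In CD4 cells it was -0.85, -1.75, -2.22 and -1.09 on old and -1.17, -1.63, -1.26 and -0.81 on young arrays. The pooled SD among the 12 arrays at 0 h was 0.12. The old CD4 value at 24 h rests on 3 of the 5 interferon-induced genes, the spots of Psmb9 and Psme2b-ps being lost there. No p is given, since the genes were chosen for this contrast.

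The alpha ring of the core rose as a block at 12 and 24 h, when 7 of 7 constitutive alpha subunits were called higher in each cell type. In CD4 cells Psma7 at 12 h and Psma5 at 24 h rest on 1 stimulated array. At 4 h 7 of 7 were called in CD4 cells (median log2 change 1.28) and 2 of 7 in CD8 cells (0.52). Psma2 had the smallest mean change over the 4 times, 0.61 in CD8 and 0.72 in CD4 cells, with levels of 6.45 to 7.41 on stimulated CD8 arrays against 6.16 to 6.72 at 0 h. The largest fitted change among the alpha genes was that of Psma8, which replaces Psma7 in testis, and it was above background on only 9 of 28 arrays. At 24 h Psma8 was above background on both arrays of each cell type, against 0 of 6 CD8 and 1 of 6 CD4 arrays at 0 h. It passed the filter only through stimulated arrays, which favours its calls in the counts above, and no p is given. At 24 h Psma8 was at least 1.85-fold higher in CD8 cells. In CD4 cells the same calculation gave 3.04-fold, which is not exact because 1 array at 0 h measured it. The bound sets the mean of the stimulated arrays against, for each array at 0 h, the lowest level at which any probe was above background (or the probe's level there, if that was more).

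Among the beta subunits 6 of 7 constitutive genes were called higher at 12 and at 24 h in each cell type. Psmb2 had the largest mean change over the 4 times in CD4 cells (1.81) and Psmb5 in CD8 cells (1.35). Psmb2 levels in CD4 cells were 2.89, 3.33, 3.51 and 2.11 on old and 2.62, 3.07, 2.85 and 2.11 on young arrays at 4, 12, 24 and 72 h, after 0.68, 0.89 and 1.80 (lowest, median and highest) at 0 h. All 8 stimulated arrays were above the 6 at 0 h. Psmb1 was called at none of the 4 times in CD8 cells, with log2 changes of -0.40 to 0.43.

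All 6 ATPases of the cap were called higher in CD8 cells at 12 and 24 h, and in CD4 cells 4 of 4 measured were at 12 h and 6 of 6 at 24 h. The old CD4 array at 24 h was missing for Psmc5 and Psmc6. Psmc4 had the largest mean change, 1.27 in CD8 and 1.87 in CD4 cells. At 12 h it stood at 5.37 in old and 5.03 in young CD8 cells against 3.26 to 3.85 at 0 h (3.29-fold, limma adjusted p = 6.66e-05), and at 5.10 and 5.50 in CD4 cells against 2.11 to 3.35 (5.50-fold, adjusted p = 7.77e-07). The smallest mean changes were 0.77 for Psmc5 in CD8 cells and 0.74 for Psmc3 in CD4 cells, the second among 4 ATPases measured at every time. The ATPases unfold substrates and open the gate of the core.

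Of the 11 non-ATPase subunits 10 were called higher in CD8 cells at 12 and at 24 h, and 11 and 9 in CD4 cells. The old array at 12 h was missing for Psmd3 in both cell types. Psmd7, the partner of the deubiquitinase Psmd14 in the lid, had the largest mean change, 1.49 in CD8 and 1.91 in CD4 cells. Its levels at 12 h were 4.96 in old and 4.58 in young CD8 cells against 2.45 to 3.01 at 0 h (4.13-fold), and 5.88 and 5.22 in CD4 cells against 2.44 to 2.83 (7.59-fold, limma adjusted p = 1.66e-07). Its 2 other probes changed by 1.22 and 1.02 in CD8 cells and by 1.46 and -0.63 in CD4 cells, the last from the dimmest probe. Psmd4, a ubiquitin receptor, had the smallest mean change, 0.39 in CD8 and 0.47 in CD4 cells. It was called once, in CD4 cells at 12 h (0.93, limma adjusted p = 0.00798). That call held in 14 of 19 alternatives and was lost, among others, without the old array (0.82). Psmd1, a scaffold of the base, read -0.49 on the young CD4 array at 24 h and 3.61 on the old one, against 1.31 to 1.88 at 0 h, and was not called there.

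The regulators and chaperones moved unevenly. Psme4, the nuclear activator PA200, reached 6.31, 5.79 and 5.99 in old and 5.59, 5.38 and 5.54 in young CD4 cells at 12, 24 and 72 h, against 3.71 to 4.09 at 0 h, with log2 changes of 2.03, 1.67 and 1.84 (limma adjusted p = 1.02e-06, 6.73e-06 and 3.08e-06). In CD8 cells it was called at 12 h only (0.72, limma adjusted p = 0.0181). That call held in 12 of 19 alternatives and was lost, among others, without the old array (0.38). Psme3, the nuclear activator PA28 gamma, stood at 72 h at 3.13 in old and 4.13 in young CD8 cells against 0.59 to 1.93 on 5 arrays at 0 h (log2 change 2.20, limma adjusted p = 0.00185). In CD4 cells it stood at 3.68 and 2.90 against 1.31 to 2.51 (1.61, limma adjusted p = 0.00916). The CD4 call held in 15 of 19 alternatives and was lost, among others, without the old array (0.89). Psmf1, an inhibitor of the core, was called higher at 12 and 24 h in both cell types and at 72 h in CD4 cells, but its 2 dimmer probes changed by -0.26 and -0.44 over the 4 times in CD8 cells and by -0.38 and -0.44 in CD4 cells. Among the base chaperones Psmd9 changed by 0.86 in CD8 and 1.41 in CD4 cells over the 4 times, and Psmd10, known also as gankyrin, by -0.49 and 0.11 with no call at any time.

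The peak came at 12 h for most constitutive subunits. Among those measured at all 4 times, 23 of 30 peaked at 12 h in old CD8 cells and 22 of 31 in young CD8 cells. In CD4 cells it was 15 of 26 in old and 18 of 26 in young cells, with 11 and 4 peaking at 24 h. Which of 12 and 24 h was higher changed with the scaling. Scaled to array medians, the constitutive median changes were 1.57 and 1.59 in CD8 cells, and 1.90 and 1.69 in CD4 cells. With quantile normalization they were 1.03 and 0.88 in CD8 cells, and 1.28 and 1.30 in CD4 cells. Between 24 and 72 h 39 of 44 members had a lower fitted level at 72 h in CD8 cells (median log2 difference -0.46), but none was called by limma at an adjusted p under 0.05 (0.737% of all genes were, and 5 members had an unadjusted p under 0.05, as had 12.2% of all genes). In CD4 cells 13 of 44 were called lower and 0 higher, where 8.77% and 7.2% of all genes were. These were Psma7 (-1.81), Psmd11 (-1.73), Psma4 (-1.57), Psmd9 (-1.32), Psmd7 (-1.20), Psmc1 (-1.13), Psmc4 (-1.11), Psmb2 (-1.07), Psmd2 (-1.06), Psmd6 (-1.05), Psmd3 (-0.96), Psmb4 (-0.93) and Psmc3ip (-3.24). None of the interferon-induced genes was among them, and their median was 0.20. Of the 13, Psma7 and Psmd11 rest on 1 array at 72 h and Psmc3ip on 1 array at 24 h. The count of 13 is weakly held, at 2 to 14 with 1 of the 4 arrays left out and at 1 with arrays scaled to their medians.

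**Figure D4:**
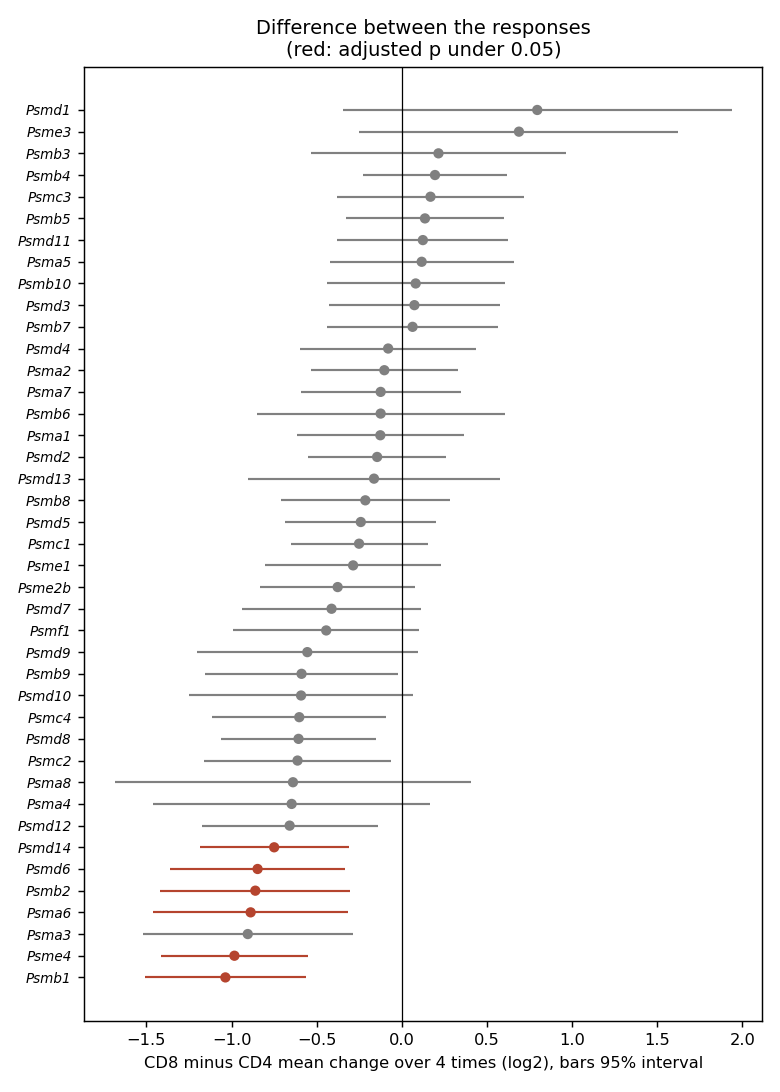
Difference between the CD8 and the CD4 log2 response, each the mean of the 4 stimulated times over 0 h, for each member with its 95% confidence interval from limma. Psmc3ip is left out, 30 of the 41 members shown lie below 0, and the 6 called are Psmb1, Psme4, Psma6, Psmb2, Psmd6 and Psmd14.

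The response of the members was smaller in CD8 than in CD4 cells for 31 of 42 genes measured in both (median log2 difference -0.27), beside medians of -0.12 over all genes, -0.18 over genes as bright and -0.15 over the constitutive subunits. The difference itself was called for 6 genes, all lower in CD8 cells, where 6.4% of all genes were called lower and 3.29% higher. The largest were Psmb1, with -1.04 ± 0.23 (SE, limma adjusted p = 0.00833), and Psme4, with -0.98 ± 0.21 (adjusted p = 0.007). Psmb1 stood at 5.15 in old and 5.12 in young CD8 cells at 72 h against 4.33 to 5.23 at 0 h, and at 5.65 and 6.19 in CD4 cells against 4.01 to 4.57. The others were Psma6 (-0.89), Psmb2 (-0.86), Psmd6 (-0.85) and Psmd14 (-0.75). The call count was 2 to 7 with 1 array left out and 0 with slide as a random block, with arrays scaled to their medians or with resting arrays of the same session only. The CD4 arrays at 12, 24 and 72 h were those with the wider spread of repeat spots given above, whose part in the result was not tested. The fitted differences take no account of scanner and software version. Both differ between the stimulated CD4 arrays and all CD8 arrays, and between the stimulated CD4 arrays and most CD4 arrays at 0 h.

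At 0 h the members were higher in CD8 than in CD4 cells in 39 of 44 cases. Their median log2 difference was 0.33, beside 0.02 over all genes and 0.14 over genes as bright. None was called by limma, where 13.7% of all genes were. Of the 44 members 16 had an unadjusted p under 0.05, all higher in CD8 cells, as had 29% of all genes in either direction. The closest was Psmc4 at 0.65 ± 0.19 (adjusted p = 0.052), with 3.26 to 3.85 in CD8 against 2.11 to 3.35 in CD4 cells. All 5 interferon-induced genes were on the higher side (median 0.38). On the slides scanned together, with 4 CD8 and 4 CD4 arrays, 43 of 44 members were higher in CD8 cells (median 0.28). Each cell type was on a slide of its own there, so cell type and slide cannot be told apart. Of all genes 10412 of 19397 were (median 0.05). Leaving out single arrays gave 0 to 5 calls.

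In the main fit, which takes no account of the slide, age made no called difference at 0 h. Each slide at 0 h held arrays of both ages, and the fit with the slide as a block follows below. Old over young, 0 of 44 members were called in CD8 cells, where 2.22% of all genes were (limma, 0 members at an unadjusted p under 0.05). In CD4 cells 0 of 44 were called, where 1.74% of all genes were, and 2 had an unadjusted p under 0.05, as had 17.2% of all genes. The smallest adjusted p in CD4 cells was that of Psmb7 (0.151), whose levels were 1.67, 1.72 and 0.85 in old and 2.28, 2.17 and 2.04 in young cells. Both groups stay apart, with a log2 difference of -0.75 (95% interval -1.27 to -0.22). For Psmb10 the difference was 0.19 (-0.34 to 0.71) in CD8 and 0.38 (-0.15 to 0.91) in CD4 cells.

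With the slide as a block, 8 of 44 members (18.2%) were called between ages in CD4 cells, where 23% of all genes were, and 2 of 44 (4.55%) in CD8 cells, where 9.63% were. The members called were lower in old CD4 cells for Psmd9 (-0.78), Psmb7 (-0.75), Psmf1 (-0.69), Psmd4 (-0.62), Psmc4 (-0.53), Psmd8 (-0.36) and Psmd13 (-0.36) and higher for Psmb8 (0.30), on the log2 scale. In CD8 cells Psmd13 (0.42) and Psmb8 (0.37) were higher in old cells. Within slides Psmd9 differed by -0.72 and -0.90 in CD4 cells, and Psmb8 by 0.29 and 0.33 in CD4 and by 0.44 and 0.23 in CD8 cells. These shares of members are below those of all genes. The B cell markers given above move with age in the same direction as Psmb8, with 4 of 8 called higher in old CD4 cells (median 2.26) and 1 of 8 in old CD8 cells, and their part was not tested.

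**Figure D5:**
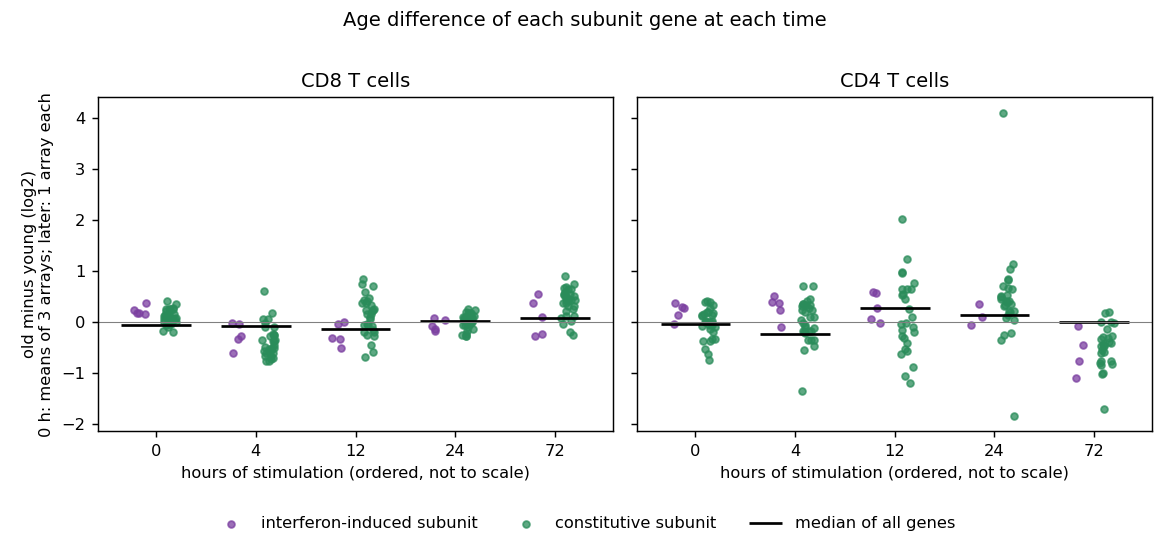
Old minus young log2 level of each constitutive subunit and interferon-induced gene by time in CD8 and CD4 cells, with 3 arrays per age at 0 h and 1 per age at the other times. The medians of the constitutive subunits are close to 0 at 0 h and move to either side at single times, at 0.43 in CD8 and -0.43 in CD4 cells at 72 h.

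Over the stimulated times together age was called for 0 of 44 members in CD8 cells, where 0.412% of all genes were (limma, 0 members at an unadjusted p under 0.05), and for 0 of 44 in CD4 cells, where 0.113% were (1 member, Psma8, at an unadjusted p under 0.05). At a single time there is 1 array per age and no test. The constitutive median of old minus young in CD8 cells was -0.44, 0.16, 0.04 and 0.43 at 4, 12, 24 and 72 h, beside all-gene medians of -0.07, -0.14, 0.02 and 0.08. In CD4 cells it was 0.05, -0.02, 0.40 and -0.43, beside -0.24, 0.28, 0.15 and 0.01. At 4 h 27 of 31 constitutive subunits were lower in old CD8 cells, and at 72 h 28 of 31 were higher in old CD8 cells and 25 of 27 lower in old CD4 cells. Genes at least as bright as the dimmest constitutive subunit had medians of -0.23, 0.14, 0.05 and 0.14 in CD8 cells and -0.02, 0.18, 0.245 and -0.16 in CD4 cells, and 28.4% of them were higher in old CD8 cells at 4 h. With quantile normalization the constitutive median was -0.19 at 4 h and 0.36 at 72 h in CD8 cells, and 0.27 at 24 h and -0.29 at 72 h in CD4 cells. A shift of nearly all subunits on 1 array against 1 cannot be told apart from a difference between those arrays.

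Genes that work with the proteasome moved in part with it. Of 24 measured partner genes, 11, 11, 10 and 6 were called higher in CD8 cells at 4, 12, 24 and 72 h and 0, 0, 2 and 2 lower. In CD4 cells 13 of 24, 16 of 24, 12 of 23 and 6 of 22 were higher and 0, 1, 1 and 1 lower. Of all genes 14.3, 16, 16.1 and 13.7% were called higher in CD8 cells and 15.7, 24.2, 25.2 and 22.3% in CD4 cells, and 13.1 to 19.7% lower. The medians of the partners at 24 h were 0.59 in CD8 and 0.84 in CD4 cells. Uchl5, a deubiquitinase of the cap, changed by 1.79 in CD8 and 2.53 in CD4 cells at 24 h (limma adjusted p = 0.000111 and 0.000129), and the shuttle receptor Ubqln1 by 1.55 and 1.95 (adjusted p = 0.00719 and 0.0119). Its relative Ubqln2 fell, with changes of -1.23 and -1.22 (adjusted p = 0.0123 and 0.00915). The ubiquitin-activating enzyme Uba1 had a mean change of 1.46 over the 4 times in CD4 cells.

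The class I antigen processing genes moved in both directions. Of 13 measured, 1 was called higher and 5 lower in CD8 cells at 24 h (median log2 change -0.40), and 5 higher and 5 lower in CD4 cells (median -0.44). Of all genes 16.1% were higher and 17.1% lower in CD8 cells then, and 25.2% and 19.7% in CD4 cells. Among genes at least as bright as the dimmest constitutive subunit the shares were 25.7% and 19.4% in CD8 and 37.8% and 19.5% in CD4 cells. The heavy chain genes H2-K1 and H2-D1 fell in CD8 cells by 1.08 and 0.90 (limma adjusted p = 0.00541 and 0.0245) and in CD4 cells by 2.10 and 2.02 (adjusted p = 6.97e-06 and 0.000242). At the same time the chaperones Canx and Calr changed by 0.73 (adjusted p = 0.0192) and 0.66 (adjusted p = 0.13) in CD8 cells and by 0.81 and 1.55 (adjusted p = 0.00706 and 0.000666, limma) in CD4 cells. Tap1, singled out after its values were seen because it lies between Psmb8 and Psmb9, was called in CD4 cells at 24 h (1.00, adjusted p = 0.0155) and at 72 h (1.69, adjusted p = 0.000357), the time at which Psmb9 was called, and in CD8 cells at no time (0.38 to 0.51). Of the interferon response genes measured, CD8 cells had 13 of 35 higher and 4 lower at 4 h and 4 and 17 at 24 h. CD4 cells had 16 and 1 of 35 at 4 h and 9 and 6 of 34 at 24 h. At 4 h 14.3% of all genes were higher and 13.1% lower in CD8 cells, and 15.7% and 16.4% in CD4 cells. Irf8 and Cxcl10 had the largest mean rises over the 4 times, 3.86 and 2.81 in CD8 and 4.78 and 3.93 in CD4 cells, and the RNA sensor Ddx58 changed by -2.39 and -2.60.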

How the data were processed

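RNA of 28 mouse T cell samples was measured on one-colour Agilent arrays after low-input linear amplification and Cy3 labelling, per the labels' protocols. The deposited intensity values had been made by Agilent's Feature Extraction program, which subtracts background, per the file headers, in version 10.1.1.1 on 18 arrays and 9.5.1.1 on 10 arrays. The deposited log2 values of the authors' series matrix are scaled to the 75th percentile and centred on an unknown set, with column medians of -0.972 to 0.494. In 14 of 28 columns they match their own array, in 6 stimulated CD8 columns they hold another array, and in 8 stimulated CD4 columns they differ. They served as an alternative at 0 h and in CD8 cells at 72 h only.

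Here control spots and outlier-flagged spots were left out, repeat spots averaged, and log2 of the processed signal minus the array's 75th percentile taken. The members and lists were chosen with earlier results of these data known. Psmd3 spots at 12 h on the old CD8 (-3.40) and old CD4 array (2.05) lay over 4 log2 units below the probe's median of 6.66 and were set missing. Genes had to be well above background on 3 or more arrays. Probe coordinates are those of the 10 files that list them, whose headers name mm7 (the other 18 name mm8). Models were fitted to all genes with limma 3.58.1 in R 4.3.3, and a Benjamini-Hochberg adjusted p under 0.05 was a call: ages and cell types at 0 h on 12 arrays, and each time over 0 h on 28 arrays with a term for each time within a cell type and 1 age term in each. The procedure was tested on simulated data. Described in full were the interferon-induced and catalytic genes, and in each role group the genes with the largest and smallest mean change. The number of arrays limits the precision. Alternatives were other scalings (array median, quantile), normexp with an offset of 50 on median signals (mean signals are not in every file used here), other filters and probe rules, array weights, the scanner, slide or replicate number as a block, and each array left out. Resting arrays of the same session only, and lost spots kept, were added after the data were seen. The first leaves out the resting arrays of the last scanning day. The CD4 arrays at 4 h and the old CD8 array at 12 h were still scanned on other days than those kept. The replicate numbers at 0 h were taken as pairing old and young CD4 arrays, since the deviations of same-numbered arrays correlated at 0.55, 0.49 and 0.68. Arrays 1 and 2 share a slide and correlated at 0.45 and 0.52 across numbers, so number and slide cannot be told apart. In CD8 cells they did not (-0.24, 0.09 and -0.41).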

Additional observations from a re-analysis of the deposited data

Results flagged for a closer look

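In the main fit the response of 6 members differed between the cell types by a test of the difference itself (limma, CD8 minus CD4, log2 scale). The values were -1.04 for Psmb1, -0.98 for Psme4, -0.89 for Psma6, -0.86 for Psmb2, -0.85 for Psmd6 and -0.75 for Psmd14. Psmb1 and Psme4 had the smallest adjusted p, and no member had a called difference in the other direction. Of all genes 6.4% were called lower and 3.29% higher. The count of members is weakly held, at 2 to 7 with 1 array left out. No member was called with slide as a random block, with arrays scaled to their medians or with resting arrays of the same session only. More were called with the scanner as a block. The main fit takes no account of scanner and software version. Both differ between the stimulated CD4 arrays and all CD8 arrays, and between the stimulated CD4 arrays and most CD4 arrays at 0 h.

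At 72 h the constitutive subunits were on opposite sides between the ages in the 2 cell types, with a median of old minus young of 0.43 in CD8 cells and -0.43 in CD4 cells (log2 scale). Each is 1 array against 1, and the difference was not tested.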

How the results depend on the processing

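The gap between interferon-induced and constitutive subunits was negative in all 49 values of the alternatives other than leaving out single arrays (-1.74 to -0.62). With the mean of all probes it was -1.24, -1.01 and -0.76 in CD8 cells at 12, 24 and 72 h and -1.28, -1.30 and -0.62 in CD4 cells. Quantile normalization gave -1.28 and -1.22 in CD8 cells at 12 and 24 h and -1.39 and -0.78 in CD4 cells at 24 and 72 h, normexp -1.53 in CD4 cells at 24 h, the authors' matrix -0.82 in CD8 cells at 72 h, and resting arrays of the same session -1.35, -1.34 and -1.20 in CD8 cells at 4, 12 and 24 h and -0.79 and -1.52 in CD4 cells at 4 and 24 h. With 1 array left out the gap was -1.17 to -1.11 (4 h), -1.80 to -1.21 (12 h), -1.46 to -1.23 (24 h) and -1.12 to -0.82 (72 h) in CD8 cells, and -1.17 to -0.85, -1.81 to -1.63, -2.22 to -1.26 and -1.09 to -0.81 in CD4 cells.

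Counts of called members moved more, and the cause was not tested. With arrays scaled to their medians, which moved the median of all genes at 24 h to 0.29 in CD8 and 0.33 in CD4 cells, 3 members were called in CD8 cells at 4 h and 4 at 72 h, 10 in CD4 cells at 4 h, 11 at 72 h and 1 between 72 and 24 h, and 0 between the responses. The slide as a random block gave 8, 19 and 5 in CD8 cells at 4, 24 and 72 h, 15 and 13 in CD4 cells at 4 and 72 h, 2 between 72 and 24 h in CD4 cells and 0 between the responses. Resting arrays of the same session gave 6 and 6 in CD8 cells at 4 and 72 h, 16 and 14 in CD4 cells at 4 and 72 h, 7 between 72 and 24 h and 0 between the responses. Normexp gave 7 in CD8 cells at 72 h (2 higher, 5 lower), 30 between 72 and 24 h in CD8 cells (1 higher, 29 lower), 7 in CD4 cells, 1 between the responses and 3 between the cell types at 0 h. Quantile normalization gave 13 in CD8 cells at 4 h, and no filter on dim probes 6 between 72 and 24 h in CD4 cells and 2 between the responses. Array weights gave 29 between the cell types and 18 (7 higher, 11 lower) and 5 for age in CD4 and CD8 cells at 0 h, 4 between 72 and 24 h in CD4 cells and 1 in CD8 cells. The scanner as a block gave 10 between the responses, 1 between the cell types at 0 h and 2 for age in CD4 cells, the slide as a block gave 8 and 2 for age in CD4 and CD8 cells, and the filter at 14 arrays 4 between the cell types. The replicate block gave 2 calls between the cell types at 0 h in place of 0, and it changed no call for age in CD4 cells.

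With 1 array left out the counts over 0 h were 2 to 20, 24 to 36, 18 to 33 and 4 to 16 in CD8 cells at 4, 12, 24 and 72 h, and 13 to 26, 28 to 37, 28 to 37 and 13 to 26 in CD4 cells. They were 2 to 14 and 0 to 1 between 72 and 24 h in CD4 and CD8 cells, 2 to 7 between the responses, 0 to 5 between the cell types and 0 to 0 for each of the 4 age comparisons. Where 1 array is left at a time, it is assumed to vary like the other groups. Single members turned sign with the mean of all probes for Psmc6 (-0.16), Psmd7 (-0.21) and Psmf1 (-0.68) in CD4 cells at 72 h, and with lost spots kept for Psmd3 at 12 h (-4.32 in CD8 and -1.44 in CD4 cells). Among other single calls, arrays left out aside, 2258 values kept their side of the threshold and 464 did not.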

Other observations

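The lists of NK cell, erythroid and platelet, and activation markers were not used above. The summed level of 3 erythroid and platelet markers was at most 0.741 on stimulated CD8 arrays against 0.851 to 3.07 at 0 h, and at most 0.699 on stimulated CD4 arrays against 0.995 to 3.49 at 0 h. The summed level of 4 NK cell markers, relative to the 75th percentile, was 0.231 to 0.641 on stimulated CD8 arrays against 0.983 to 2.43 at 0 h, and 0.146 to 0.873 on stimulated CD4 arrays against 0.397 to 2.19. Activation markers ran the other way, at 173.1 to 623.4 on stimulated CD8 arrays against 29.7 to 82.9 at 0 h, and at 242.8 to 697.1 on stimulated CD4 arrays against 27.3 to 58.8 at 0 h. Of 17 members with more than 1 probe kept, the probes had the same sign over the 4 times in 12 in each cell type.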
